A study of Mus musculus with 2 samples.

Results

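The subunits of mitochondrial oxidative phosphorylation were examined as the genes whose names in the array files begin with Nduf (complex I), Sdha to Sdhd (complex II), Uqcr (complex III), Cox4 to Cox8 (complex IV) or Atp5 (complex V). These prefixes picked out 82 genes with 113 probes, of 27621 genes with 41085 probes on the array. Of the 82 genes, 79 had at least 1 probe well above background on both arrays, with 105 such probes, and these 79 are called measured. The prefixes also take in 3 genes that are not subunits. Cox4nb is the neighbour of Cox4i1 and is now named Emc8, Ndufaf1 is an assembly factor of complex I, and Atp5s encodes coupling factor B. They are counted with the members unless stated otherwise. Subunits encoded by mitochondrial DNA were not analysed here.

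The cells were M/E cells, bone marrow cells of the mouse immortalised by expression of MLL/ENL, and both cultures had the genotype M/E-Mef2c del/-, so that neither made a functional MEF2C of its own. The control culture carried the empty vector MYs-iPAC. The other culture carried MEF2C-ASR, a Mef2c mutated in its binding to histone deacetylases and constitutively active. Both grew in medium with IL3, IL6 and GM-CSF at 10 ng/ml each and SCF at 100 ng/ml. RNA from harvests at 6, 24 and 48 h after seeding was pooled within each culture, so every group is 1 pooled RNA on 1 array, and a response confined to 1 harvest time cannot be told apart from a smaller one at all of them. The words higher and lower below describe these 2 arrays.

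Oxidative phosphorylation passes electrons from NADH through complex I, or from succinate through complex II, to ubiquinone. Complex III hands them on to cytochrome c and complex IV to oxygen, and the proton gradient built up on the way drives the ATP synthase, complex V. Most subunits are encoded in the nucleus, and several subunits of complex IV exist in a form made in most tissues and another made mainly in heart and skeletal muscle. MEF2C is a transcription factor of muscle, neural and blood cells that is held inactive by class IIa histone deacetylases.

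As a whole the members had nearly the same signals on both arrays. Differences are given as MEF2C-ASR minus control on the log2 scale, after each array was set to the 75th percentile of its own signals. The median difference of the 79 measured members was 0.02, with a 25th percentile of -0.08 and a 75th percentile of 0.14, and the range ran from -1.0 to 0.37. The median of all 16571 measured genes was -0.03. Of the members 43 (54.4%) lay above 0 and 36 below, beside 44.8% of all measured genes above 0. With scaling by spike-in spots the member median was -0.11 and that of all genes -0.16. In that setting 21 members lay above 0, beside 25.5% of all measured genes. The side of 0 on which the members lie thus depends on the scaling.

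No member was at least 1.5-fold higher with MEF2C-ASR, beside 4.5% of all measured genes. Only 1 member, Cox6a2, was at least 1.5-fold lower, beside 5.09% of all measured genes. At 2.0-fold it was also the 1 member at least 2-fold lower, beside 1.92% of all genes, though it fell just short of 2-fold with median scaling (-0.99), with the trend on level removed (-0.98) and with normexp (-0.96). At least 2-fold higher were 0 members, beside 1.74%. At a smaller size, 6 members were at least 1.2-fold higher, beside 14.4% of all genes, and 2 at least 1.2-fold lower, beside 17.4%. The other 71 members (89.9%) lay within 1.2-fold. That share was 68.2% over all measured genes and 76.6% over the 6434 genes whose mean log2 level lay above the arrays' 75th percentile. By mean signal, 77 of the members lay above that percentile on both arrays. The 6434 genes were not matched to the members in signal. Of the cytosolic ribosome genes, another bright list described below, 97.4% lay within 1.2-fold.

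These differences can be read against the error of printing. Probes printed 10 times, 245 in number, gave standard deviations over spots of 0.12 (control) and 0.09 (MEF2C-ASR), so that the difference of a probe with 1 spot carries a spotting error of 0.15. Each member probe has 1 spot. Of the 79 measured members 72 lay within 0.30, or 2 times that error, and the 7 beyond it were Cox6a2, Cox7a1, Ndufb5, Ndufa3, Ndufa1, Cox6b2 and Cox6c. The share of all measured genes beyond 0.30 was not counted. At the nearby size of 1.2-fold (0.26), 14.4% of all measured genes were higher and 17.4% lower, so the 7 are not set apart from other genes. The 0.15 is the error of 1 probe. For the 21 members averaged over several measured probes, the spotting error of the mean is smaller. The spotting error holds no variation between cultures, RNA pools or labelling reactions, so a difference past it has no replicate check.

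**Figure D1:**
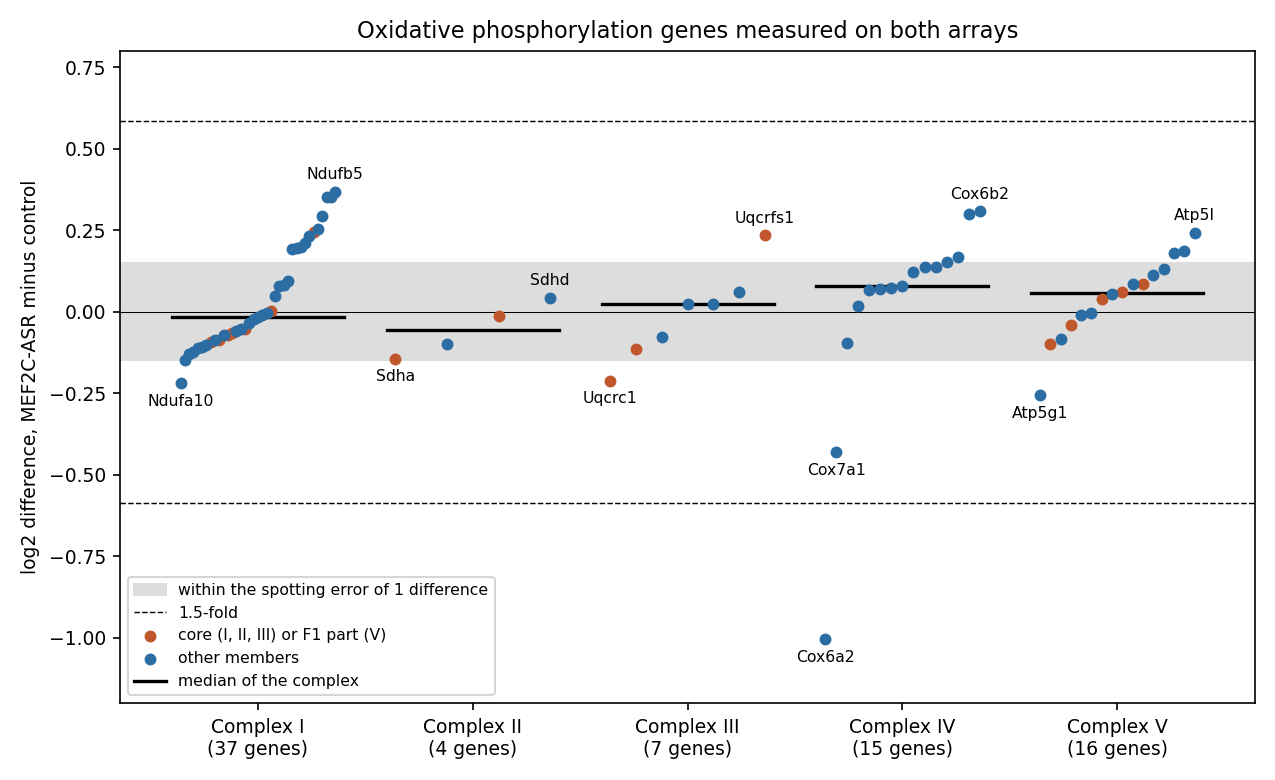
Log2 difference (MEF2C-ASR minus control) of each of the 79 measured members, arranged by complex, with the median of each complex as a bar, the spotting error of 0.15 as a grey band and 1.5-fold as dashed lines. Most points lie within or near the band, and Cox6a2 at -1.0 is the single point past 1.5-fold.

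Complex I, which oxidises NADH, had 37 members, all measured, with a median of -0.02. Of these 16 (43.2%) lay above 0, near the 44.8% of all measured genes, and 21 below, and none was 1.5-fold apart. The core subunits, which carry the flavin, the iron-sulphur clusters and the quinone site, had a median of -0.07 over 7 genes, with 5 below 0. Ndufs1, the largest of the iron-sulphur subunits, had a signal of 20253 in the control and 18518 with MEF2C-ASR and differed by -0.09. Ndufv1, which binds the flavin and NADH, differed by -0.07. Ndufv2 (-0.07) and Ndufs3 (-0.05) were alike in size, Ndufs7 stood at 0.00 and Ndufs8 at 0.24. Apart from Ndufs8, each core difference named here was smaller than the spotting error.

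The accessory subunits of complex I surround the core and serve its assembly and stability. Their median over 29 genes was -0.00, with 14 above 0, and the 4 members of complex I that were at least 1.2-fold higher were all accessory. Ndufb5, an accessory subunit of the membrane arm, had a signal of 4196 in the control and 5281 with MEF2C-ASR (0.37). Ndufa1, a small membrane subunit encoded on the X chromosome, had 2 probes, with signals of 15509 and 19610 in the control and 19359 and 24320 with MEF2C-ASR. They differed by 0.35 and 0.36, so that both probes were higher by nearly the same amount. The probes of Ndufa3 differed by 0.27 and 0.43, with a mean of 0.35, and those of Ndufa7 by 0.23 and 0.36, with a mean of 0.29. With spike-in scaling none of the 4 was 1.2-fold higher.

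At the other end of complex I, Ndufa10, an accessory subunit of the nucleoside kinase fold, had a signal of 7541 in the control and 6323 with MEF2C-ASR (-0.22). Ndufa9, which lies near the quinone site, differed by -0.15 and Ndufb6 by -0.13. Ndufab1, the mitochondrial acyl carrier protein, had 3 measured probes that did not share a sign, at 0.05, -0.18 and -0.20, and its brightest probe was the one above 0. Ndufa4, named after complex I but now regarded as a subunit of complex IV, differed by 0.20. By its name it is counted here among the accessory subunits of complex I and not with complex IV. The assembly factor Ndufaf1 differed by -0.09. Between 1 and 2 times the spotting error above 0 also lay Ndufb7 (0.25), Ndufb3 (0.23), Ndufs4 (0.21), Ndufa13 (0.20), a protein also studied in cell death, and Ndufa2 (0.19). The accessory subunits not named here ran from Ndufb10 at -0.12 to Ndufa11 at 0.09, all within the spotting error.

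Complex II, the succinate dehydrogenase shared with the tricarboxylic acid cycle, had 4 members and a median of -0.06. The flavoprotein Sdha was at -0.14, with 2 probes that agreed at -0.13 and -0.15. The iron-sulphur protein Sdhb had a signal of 12506 in the control and 12091 with MEF2C-ASR (-0.01). The membrane anchors Sdhc and Sdhd differed by -0.10 and 0.04. None of the 4 left the spotting error, and the signs of Sdhb and Sdhd changed with another scaling.

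Complex III, the cytochrome bc1 complex, had 7 measured members and a median of 0.02, which was below 0 with spike-in scaling. The cytochrome c1 subunit (Cyc1) falls outside the prefixes and is not among these 7. The core proteins among the members differed in direction. Uqcrc1, a core protein facing the matrix, had 2 probes with signals of 29088 and 50470 in the control and 24521 and 42506 with MEF2C-ASR, and both differed by -0.21. Its partner Uqcrc2 differed by -0.11. The Rieske iron-sulphur protein Uqcrfs1 was higher, with a signal of 19260 in the control and 22100 with MEF2C-ASR (0.23). Uqcrc1 and Uqcrfs1 kept their signs under 10 of 10 alternative settings, though changes of the probe filter or the deposited value table could not move either value. The small subunits Uqcrb (0.06), Uqcrq (0.02), Uqcrh (0.02) and Uqcr, now named Uqcr11 (-0.08), were all within the spotting error.

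Complex V, the ATP synthase, had 16 members, all measured, with a median of 0.06, or -0.08 with spike-in scaling. Of these 10 (62.5%) lay above 0, beside 44.8% of all measured genes, and 6 below. The F1 part, the catalytic head, had a median of 0.04 over 5 genes. The catalytic subunit Atp5b had 3 probes between -0.19 and -0.04 (mean -0.10) and the alpha subunit Atp5a1 2 probes between -0.06 and -0.03. The gamma subunit Atp5c1, the central shaft, had signals of 102612 and 102863 (0.04). Atp5d (0.09) and Atp5e (0.06) complete the F1 part.

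The stalk and membrane part of complex V had a median of 0.07 over 10 genes. Atp5g1, Atp5g2 and Atp5g3 encode the same mature c subunit of the rotor ring with different import sequences. Atp5g1 was the lowest member of the complex, with a signal of 43437 in the control and 35505 with MEF2C-ASR (-0.25), while Atp5g2 stood at -0.08 and Atp5g3 at -0.00. Atp5l, the g subunit, had a signal of 28581 in the control and 32976 with MEF2C-ASR (0.24), and the f subunit Atp5j2 differed by 0.18. Atp5f1, the b subunit now named Atp5pb, reached a mean of 0.19 through a dim probe with signals of 73.3 and 102.7 (0.52). Its bright probes stood at 0.05 and -0.01, and with the brighter probes alone the gene differed by 0.02. The remaining subunits of the stalk and membrane part were within the spotting error, from Atp5o, the oligomycin sensitivity protein of the peripheral stalk, at -0.01 to Atp5h at 0.13, with Atp5j (0.08) and Atp5k (0.05) between them. Coupling factor B, Atp5s, differed by 0.11.

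**Figure D2:**
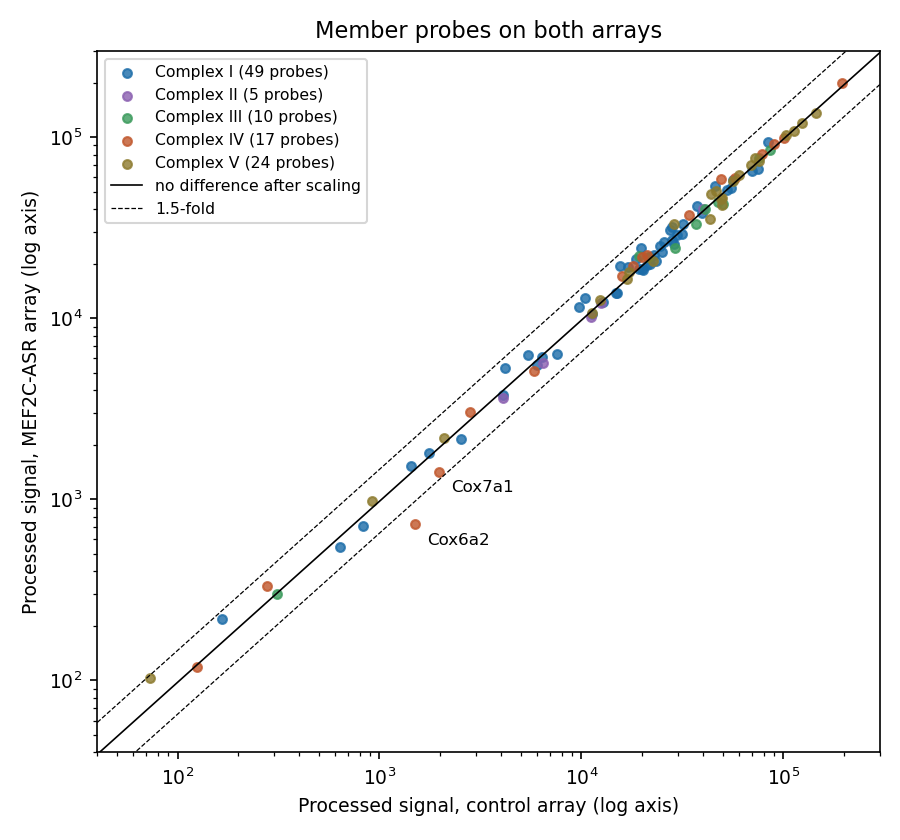
Processed signal of each of the 105 measured member probes on the control array (x axis) and the MEF2C-ASR array (y axis), both on log axes and coloured by complex, with the line of no difference after scaling and 1.5-fold lines. The probes run along the line from signals of 73.3 to 194921 on the control array, and Cox6a2 lies below the lower 1.5-fold line.

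Complex IV, cytochrome c oxidase, held the widest spread of the 5 complexes, from -1.0 to 0.31. It had 18 members, 15 of them measured, with a median of 0.08. Of the 15, 12 (80%) lay above 0, beside 44.8% of all measured genes, and 3 below, but the median of the complex was -0.06 with spike-in scaling. The members above 0 included most of the subunits made in all tissues. Cox6c had a signal of 48996 in the control and 58786 with MEF2C-ASR (0.30), and Cox7a2 had 2 probes that both stood at 0.17. Cox7c (0.15), Cox7b (0.12), Cox5b (0.08) and Cox5a (0.07), the last 2 in contact with the catalytic core, were within or near the spotting error. Cox4nb differed by -0.10.

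The muscle forms of complex IV were the members furthest below 0. Cox6a2, the heart and skeletal muscle form of subunit VIa, had a signal of 1494 in the control and 728 with MEF2C-ASR. It was thus 2.0-fold lower (-1.0), between -1.14 and -0.96 over the 10 alternative settings and past 1.5-fold in each of them. The value rests on 1 probe, at chromosome 7, 124302204 to 124302263 per the files, where the build was not given in the sources read. Alternatives that changed the probe filter or probe averaging, or took the deposited value table, could not move a value from 1 bright probe such as that of Cox6a2. Its partner Cox6a1, the form made in most tissues, had signals of 194921 and 199960 (0.07, and -0.06 with spike-in scaling). Cox7a1, the muscle form of subunit VIIa, had a signal of 1963 in the control and 1421 with MEF2C-ASR. It was 1.35-fold lower (-0.43), short of 1.5-fold, between -0.56 and -0.40 over the same settings. Its counterparts Cox7a2 (0.17) and Cox7a2l (0.14), the latter a factor of respiratory supercomplexes, were above 0.

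For the other tissue forms little could be compared. The lung form Cox4i2 had signals of 34.4 and 27.7 and was well above background on the MEF2C-ASR array alone, so it has no fold, while Cox4i1 had signals of 100280 and 99004 (0.02, and -0.12 with spike-in scaling). Signals are printed before scaling, which is why a signal slightly lower can go with a difference above 0. The muscle form Cox8b (signals 7.73 and 12.3) and the testis form Cox8c (7.84 and 4.14) stayed at background on both arrays, and Cox8a differed by 0.07, or -0.07 with spike-in scaling. The testis form Cox6b2 was higher, with a signal of 277 in the control and 334 with MEF2C-ASR (0.31), beside 0.14 for Cox6b1. A difference in muscle forms was thus measured for 2 genes, each from 1 probe.

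**Figure D3:**
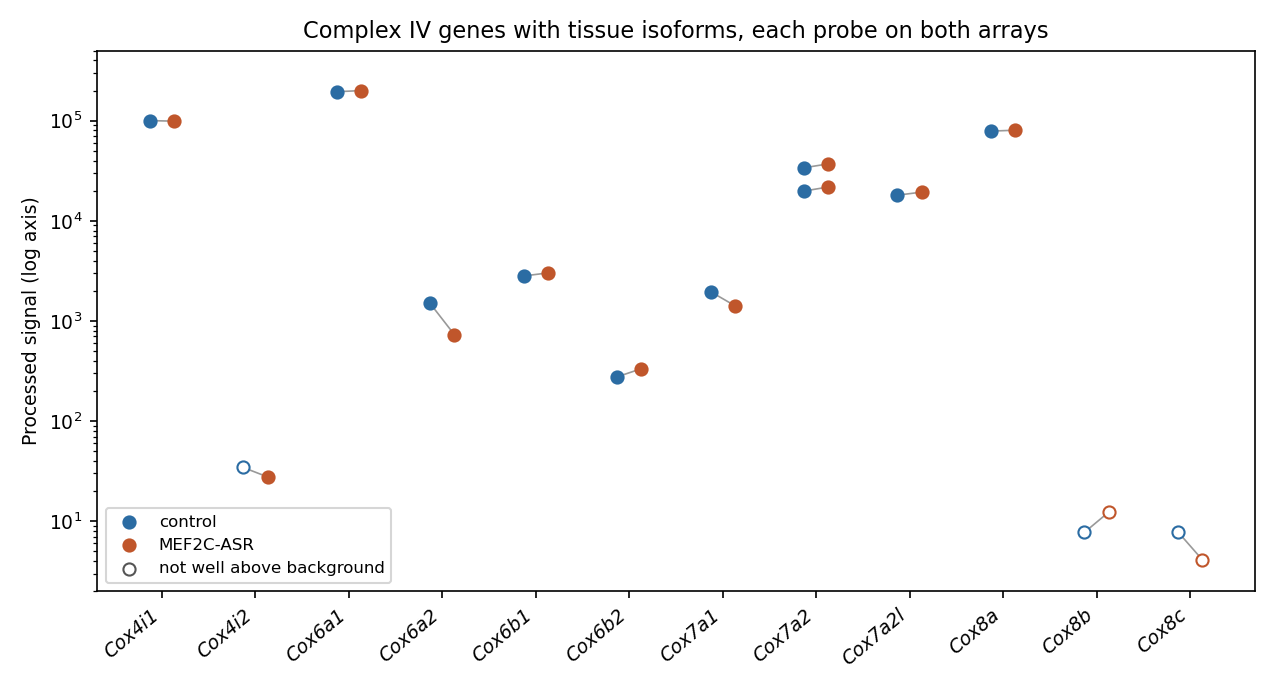
Processed signal (log axis) of each probe of 12 complex IV genes with tissue isoforms on the control array and the MEF2C-ASR array, joined by a line, with open circles where a probe was not well above background. Cox6a2 drops from 1494 to 728 and Cox7a1 from 1963 to 1421, while the lines of Cox4i1, Cox6a1 and Cox8a are nearly flat.

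The other muscle genes give the setting of these values. Of 7 heart and skeletal muscle markers 4 were well above background on both arrays, with a median of -0.01, and their differences were 0.22 for Actc1, 0.07 for Ckm, -0.10 for Myh7 and -0.26 for Acta1. Myh6, Tnnt2 and Mb were not well above background on both arrays. The summed signal of the list was 2122 in the control and 2352 with MEF2C-ASR, most of it from Actc1 (1907 and 2166). In contrast, markers of haematopoietic and myeloid progenitors were all well above background, 10 of 10 on both arrays, and had a median of 0.46, with a summed signal of 140086 in the control and 237553 with MEF2C-ASR. Mpo alone gave 68289 and 143027 of these sums. The 3 markers of this list past 1.5-fold were Mpo (1.10), Itgam (0.64) and Ptprc (0.71), all higher, beside 4.5% of all measured genes. However, the brightest Ptprc probe stood at 0.43 and a dim one at 1.58. Markers of other lineages were dim. Of 4 markers each, 2 of the B lineage, 2 of the T lineage, 3 erythroid and 3 stromal ones were measured on both arrays, and the summed signals of these lists in the control and with MEF2C-ASR were 284 and 351, 395 and 518, 454 and 390, and 353 and 315. Those past 1.5-fold were Cd79a (1.15), Cd3e (0.77), Col1a1 (0.89), Klf1 (-0.96) and Pdgfrb (-1.81), all with dim signals. Among all measured genes 4.5% were at least 1.5-fold higher and 5.09% at least 1.5-fold lower. Defining markers of the labelled cell type were present, and the part of any of these shifts in the member values was not tested. In pooled RNA, fewer cells of a type and less RNA per cell cannot be told apart.

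Promoters of a muscle isoform and of general isoforms of complex IV are shown because nuclear genes of the respiratory chain are known targets of NRF1 and of the ETS factor GABP, and many muscle genes are targets of MEF2 factors. RefSeq windows of 250 bases before the transcription start (mouse assembly GRCm38.p6) were matched for 67 of the 82 members, Cox6a2 not among them. The windows of Cox6a1 (minus strand, chr5:115348959-115349208), Cox7a1 (plus strand, chr7:30183921-30184170) and Cox7a2 (minus strand, chr9:79759854-79760103) read as follows, 5′ to 3′ toward the start, with matches to the NRF1 and ETS motifs in capitals.
Cox6a1: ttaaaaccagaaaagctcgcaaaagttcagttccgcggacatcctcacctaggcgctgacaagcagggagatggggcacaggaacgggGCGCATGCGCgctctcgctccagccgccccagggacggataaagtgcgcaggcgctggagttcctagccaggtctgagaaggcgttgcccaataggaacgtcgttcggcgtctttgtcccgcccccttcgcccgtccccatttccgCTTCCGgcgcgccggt
Cox7a1: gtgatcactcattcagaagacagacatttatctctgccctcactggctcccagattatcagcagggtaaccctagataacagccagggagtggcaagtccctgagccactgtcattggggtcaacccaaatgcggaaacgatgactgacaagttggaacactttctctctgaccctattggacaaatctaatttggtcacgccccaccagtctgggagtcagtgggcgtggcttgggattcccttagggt
Cox7a2: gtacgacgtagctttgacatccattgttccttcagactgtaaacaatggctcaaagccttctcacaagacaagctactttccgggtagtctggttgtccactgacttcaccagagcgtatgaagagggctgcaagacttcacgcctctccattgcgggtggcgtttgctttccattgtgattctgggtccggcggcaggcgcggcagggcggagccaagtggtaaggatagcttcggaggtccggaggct

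In Cox6a1 the first capitals are an NRF1 core motif read on both strands, with overlapping letters, between 162 and 153 bases before the start, and the second an ETS motif on the minus strand, between 16 and 11 bases before it. The windows of Cox7a1 and Cox7a2 held no match, and their differences were -0.43 and 0.17. The NRF1 core motif GCATGCGC, on either strand, was found in 8 of 72 member windows (11.1%) and in 741 of all 32851 windows (2.26%). The ETS motif CGGAAG was found in 23 member windows (31.9%) and in 13.6% of all windows, and the letters of these motifs overlap in none of the windows printed. The MEF2 consensus was in 0 member windows and in 1.69% of all windows. A match is a description of the letters only.

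Lists of genes that work with the respiratory complexes had medians somewhat below that of all measured genes (-0.03). Of all 16571 measured genes 9144 lay below 0, which is the background for the counts below 0 here. Cytochrome c (Cycs), which carries electrons from complex III to complex IV, differed by -0.16. Cytochrome c1 (Cyc1), a subunit of complex III whose name falls outside the prefixes, differed by -0.18. Of 42 assembly factors, which build the complexes and include Ndufaf1, 31 lay below 0 with a median of -0.14, 1 was at least 1.2-fold higher, beside 14.4% of all genes, and 6 at least 1.2-fold lower, beside 17.4%. The lowest were Ndufaf4, for complex I, with 2 probes at -0.37 and -0.51, and Coa7, for complex IV, with probes at -0.27, -0.29 and, for a dim one, -0.57. Uqcc1, for complex III, had a mean of -0.35 that came from a dim probe (signals 79.6 and 38.7), while its bright probes stood at 0.05 and -0.10. The higher one was Pet100, for complex IV, with probes at 0.28 and 0.32. Of 17 genes of the tricarboxylic acid cycle and pyruvate dehydrogenase 16 lay below 0, with a median of -0.10. The lowest was Suclg2 (-0.25). None was 1.2-fold apart, beside 14.4% of all genes at least 1.2-fold higher and 17.4% lower. The mitochondrial ribosome had a median of -0.08 over 78 genes, with 56 below 0. At 1.2-fold, 2 of its genes were higher and 9 lower, beside the same shares. None of the genes in these 4 lists was 1.5-fold apart, beside 4.5% of all genes at least 1.5-fold higher and 5.09% lower. Set against the median of all genes in the same setting, the cytochromes were below it in 10 of 10 alternatives and the other 3 lists in 9. Alternatives that changed the scaling alone shift all genes equally, so they could not alter these distances. Neither could the deposited value table. With all probes kept the other 3 lists turned. They stood above the median of all genes by 0.02 for the assembly factors, 0.01 for the tricarboxylic acid cycle and 0.04 for the mitochondrial ribosome.

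The regulators of mitochondrial genes showed a median of -0.03 over 13 genes. Tfam, which packages mitochondrial DNA and starts its transcription, had a mean of -0.28. Its bright probes stood at -0.42 and -0.04, and a dimmer one (signals 348 and 263) at -0.37. Gabpb1, a subunit of GABP, also had a mean of -0.28, but through a dim probe (signals 110 and 59.7), and its other probes stood at 0.04 and -0.02. Nrf1 stood at -0.03. The ATP synthase inhibitor Atpif1 differed by 0.02 and the uncoupler family member Ucp2 by -0.08, and Ucp1 and Ucp3 were not well above background. Glycolysis, the other route to ATP, had a median of -0.07 over 17 genes. Of these 2 were at least 1.5-fold higher, beside 4.5% of all measured genes. The glucose transporter Slc2a3 was 1.79-fold higher from 1 measured probe (signals 1465 and 2559). Gpi1, glucose phosphate isomerase, reached 1.56-fold through a dim probe (signals 95.3 and 204), and its bright probe stood at 0.16. The cytosolic ribosome, taken as a second set of bright housekeeping genes after values were seen, had a median of -0.01 over 77 genes, with a 25th percentile of -0.06 and a 75th of 0.04. Its 1 gene past 1.5-fold was Rps6 at 0.99, beside 4.5% of all measured genes at least 1.5-fold higher. Rps6 likewise rested on a dim probe (2.04), and its bright probe stood at -0.06.

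**Figure D4:**
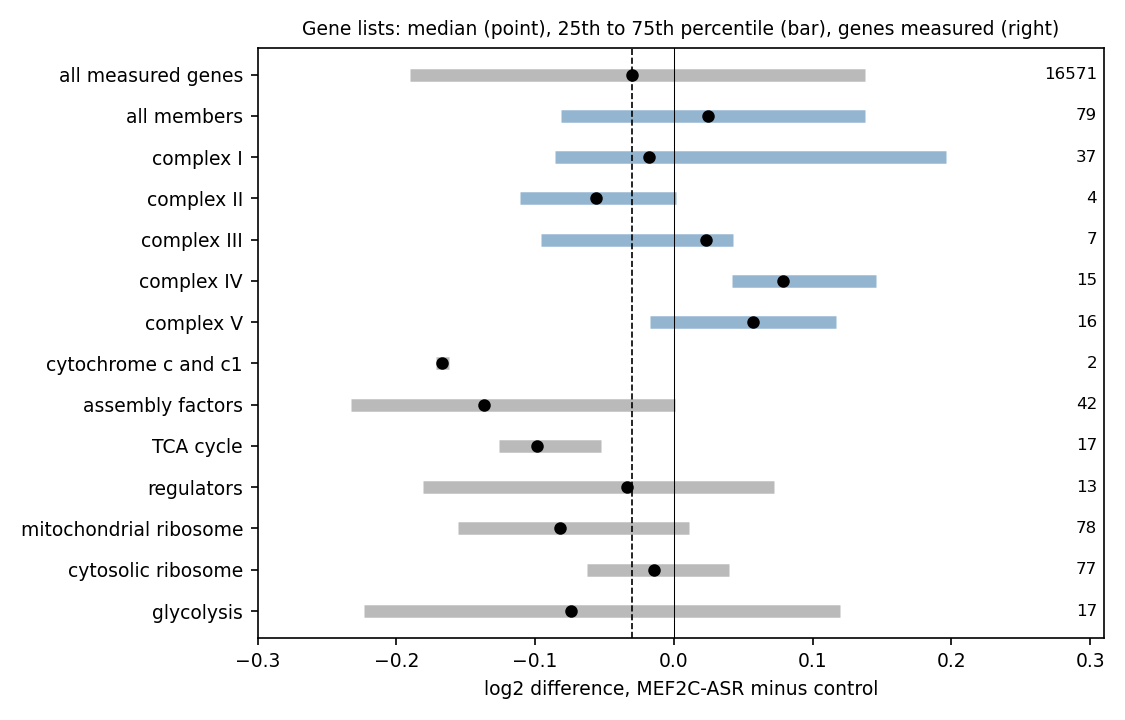
Median log2 difference (point) and 25th to 75th percentile (bar) of all measured genes, of the members and their complexes, and of the lists that work with them, with the number of genes measured at the right and the median of all genes as a dashed line. The member complexes lie between -0.06 and 0.08, and the assembly factors, at -0.14, and the cytochromes, at -0.17, lie to their left.

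The arrays carried 43379 spots other than controls, of which 60.1% (control) and 67.5% (MEF2C-ASR) were well above background, and no spot was saturated. A Mef2c probe was 2.54-fold higher with MEF2C-ASR (signals 795 and 1969), while a second Mef2c probe was at background on both. Whether either probe reads the deleted allele or the introduced transcript is not stated in the labels, so the value does not check the labels.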

How the data were processed

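Total RNA of 2 cultures was amplified, labelled with Cy3 and hybridised to 1-colour Agilent arrays, both on the same slide and scan. The deposited scanner files give each spot's intensity, linear, background-subtracted and detrended with Agilent Feature Extraction 9.5.1.1, per the file headers. The deposited value table held the same intensity values, with a largest relative difference of 0, so its scale is linear with no centring. Here log2 of the processed signal minus each array's 75th percentile over non-control spots was used (signals of 1272 and 1240). Outlier spots were left out (202 and 201). Measured probes are those well above background, and unsaturated, on both arrays. A gene was the mean of its measured probes, and 4 of 21 members with several had probes of both signs. Probes were named through RefSeq (GRCm38.p6), with 22944 matched through the accession, 6664 through the symbol, 3108 through older symbols and 8458 left with the file's name.

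With 1 array per group there are no replicates and thus no tests. A size of 1.5-fold stands in, with 2-fold and 1.2-fold beside it, the last added after values were seen. The number of arrays limits the precision. The members and lists were chosen with earlier results of these data known. Named are members past 1.5-fold, the 3 highest and 3 lowest of each complex, those not measured on both arrays, those with discordant probes, tissue isoforms and catalytic subunits, and in each further list members past 1.5-fold, at most 4. Other genes named were chosen after their values were seen, and 1 gene that the rule names is not reported here. On simulated arrays with 200 of 16571 genes changed 2-fold, 200 passed 1.5-fold, and 0 unchanged genes did. This checks the computing steps alone. It gives no rate of false calls for these arrays, since variation between cultures was not measured. Alternatives changed the scaling, background correction (normexp, limma 3.58.1, R 4.3.3), probe filter and probe averaging. Another took the deposited value table, which held the same values. Other steps used Python 3.11.15, pandas 2.3.3, numpy 2.4.6 and statsmodels 0.14.6.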

Additional observations from a re-analysis of the deposited data

How the results depend on the processing

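No paired analysis was possible because each group has 1 array. With spike-in scaling 0 members were at least 1.2-fold higher and 7 at least 1.2-fold lower. In that setting 21 lay above 0, beside 25.5% of all measured genes. These counts follow by construction from a scaling that moved the median of all genes from -0.03 to -0.16. With all probes kept, dim ones included, 3 of 82 members were past 1.5-fold (Cox6a2 and the background-level Cox8b and Cox8c) and 8 at least 1.2-fold lower. The shares of all genes past these sizes were not counted with spike-in scaling or with all probes kept, so these counts have no background. Of the 79 measured genes, Ndufs4 (-0.33 in place of 0.21), Ndufs1 (-0.48), Sdhc (-0.47) and Ndufab1 (-0.31) moved most with all probes kept, through probes not measured on both arrays, Atp5f1 (0.02) with the brighter probes alone and Ndufab1 (0.05) with the brightest probe. No difference past 1.5-fold changed sign, though for Cox6a2, with 1 bright probe, changes of the probe filter or averaging could not alter the value. The count past 1.5-fold stayed at 1 in the other alternatives, and leaving out Cox4nb, Ndufaf1 and Atp5s gave a member median of 0.03. Normexp left out 7 control-array spots with local background over 10 times the array's median. Signals below 38.3 (control) and 20.0 (MEF2C-ASR) were never well above background, which limits the dim isoforms.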

Other observations

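Some subunits carry another name in the files and so fall outside the prefixes. They were identified after values were seen. Atp5md, a small ATP synthase subunit listed as Usmg5, differed by 0.13 and Atp5mpl by 0.24. The flavoprotein-associated complex I subunit Ndufv3 differed by 0.06 and the complex III subunit Uqcr10 by 0.00. A further probe matched to Sdha through its accession stood at -0.30, with signals of 413 and 327, below the values of the probes named Sdha. The testis isoform Cox7b2 stayed at background on both arrays.

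In the order of the RefSeq gene table, Cox6a2 lies beside the leukocyte integrin genes. Itgam differed by 0.64 and Itgax by 0.90, both in the direction opposite to Cox6a2 at -1.0, while the genes on the other side, 9130023H24Rik (-0.05), Armc5 (-0.16) and Tgfb1i1 (0.10), were within 1.2-fold. Around Cox7a1 the measured neighbours ranged from Zfp260 (-0.30) to Tbcb (0.21). These neighbours were looked up after the values of both genes were seen.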
